A study of Sus scrofa with 70 samples.

Results

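Long-read sequencing (PacBio Iso-seq) of boar reproductive glands yielded 16,459 coding NIC isoforms, which are described here. NIC is the SQANTI3 category of isoforms that join splice sites already annotated in Ensembl in a combination that no annotated transcript has. From 110,996 isoforms in all, those of the NIC category were taken that were marked as coding and were not predicted to undergo nonsense-mediated decay (NMD), and "coding NIC isoform" is used below for these alone. They came from 6563 genes, with a median of 2 per gene, and 15,729 of them were present in the table of RNA-seq abundance. Abundance is given as TPM, the number of transcripts scaled to a common sum in every library, and the share of a gene is the TPM of an isoform as a percent of the summed TPM of all transcripts of that gene.

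Tissue came from 2 breeds of pig, the Banna mini-pig inbred line (BMI) and the Diannan small-ear pig (DSE), from which that line was bred. All boars were 12 months old, and the labels name no treatment. The epididymis, the testis and 3 accessory glands (vesicular, prostate and bulbourethral) were each represented by 1 Iso-seq library and 3 RNA-seq libraries per breed, 10 and 30 libraries in all. The labels do not say which libraries came from the same animal, so p-values measure the spread between these libraries. The labelled glands were checked against marker genes summed over all their transcripts. Spermatid markers had a median of 79,113.5 TPM in testis and at most 87.1 TPM as a median elsewhere, although single epididymis libraries reached 1036 TPM. Epididymal epithelium markers had a median of 4103.84 TPM in epididymis and at most 9.17 TPM elsewhere. Markers of accessory gland epithelium, secreted spermadhesins among them, had medians of 13,177.9 TPM in bulbourethral gland, 158,572 TPM in prostate and 342,318 TPM in vesicular gland. The sums rested on different genes, with medians of 10,651 TPM for AGR2, 128,338 TPM for MSMB and 246,017 TPM for PSP-I, in that order. The spermadhesin PSP-I had 6.11 TPM in prostate and 2.41 TPM in bulbourethral gland. EPCAM, KRT8, KRT18 and KRT19 went the other way, lowest of the 3 in vesicular and highest in bulbourethral gland. Smooth muscle markers were highest in epididymis, with a median of 7309.68 TPM against 161.1 to 2522.91 TPM in the other glands, and plasma cell markers in bulbourethral gland (759.7 TPM against at most 37.8 TPM). In such bulk tissue, fewer cells of a type and less RNA per cell cannot be told apart.

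Introns are removed from a pre-mRNA at splice sites, most of which begin with GT and end with AG on the intron side. Exons can be left out, introns can be kept, and known junctions can be joined in other orders, and each of these changes either the protein or the untranslated regions (UTRs) that govern stability and translation of the mRNA. Testis and brain are known for particularly many alternative isoforms, and the accessory glands for devoting much of their mRNA to a few secreted proteins.

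Sequences at the changed sites are shown for 3 isoforms with a junction that Ensembl lacks, since these are the splices that were read directly. Each line gives 15 bases of one exon in lower case and 15 bases of the next exon in capitals, from Sscrofa11.1, 5′ to 3′ on the strand of the gene, and the interval runs from the first to the last base with the intron in between left out. They belong to CYB5A (chr1:149765880-149769978, plus strand), TEAD1 (chr2:46456415-46469985, minus strand) and SYCP3 (chr5:82493150-82494002, plus strand).
CYB5A: attgccaagccttcgGAAACTCTTATTACC
TEAD1: caagccgccattaagGTAACAAGCATGGTA
SYCP3: aagcgaacacctcagAAAAATGGTGCCTTC

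Ensembl introns kept inside the coding sequence are shown for 2 isoforms. Capitals mark the bases that an Ensembl transcript leaves out, between 15 flanking bases. These are ACTA2 (chr14:100868350-100868424, minus strand, intron of 45 bp) and RSPRY1 (chr6:19194370-19194483, plus strand, intron of 84 bp). Both lengths are multiples of 3.
ACTA2: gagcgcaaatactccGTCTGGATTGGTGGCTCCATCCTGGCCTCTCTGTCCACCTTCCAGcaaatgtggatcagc
RSPRY1: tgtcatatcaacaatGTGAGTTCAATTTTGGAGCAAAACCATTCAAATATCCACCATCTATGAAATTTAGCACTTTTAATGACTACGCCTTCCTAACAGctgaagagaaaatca
Both stretches begin with GT and end with AG. The predicted coding sequences of 377 (ACTA2) and 576 (RSPRY1) amino acids run through them. Whether they are introns or parts of an exon that an Ensembl model leaves out was not tested.

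Some retained introns of the Ensembl annotation were only a few bases long. In the lines below, capitals mark the bases that an Ensembl transcript leaves out and the isoform keeps, for MEA1 (chr7:38079714-38079741, minus strand, 2 bp), MIIP (chr6:72067233-72067260 and chr6:72067243-72067272, plus strand, 2 and 4 bp) and SPACA3 (chr12:42054918-42054944, minus strand, 1 bp).
MEA1: tgcagcccctgccCGatggcagcagtag
MIIP, first: ctgcccacaggatGCcaaccagagtgac
MIIP, second: gatgccaaccagaGTGAcccctgtgataga
SPACA3: tgagtcagcgctgGtggggacgacacc

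Longer introns retained in a UTR are shown by the 10 bases on either side of each end, with the outermost 2 bases of the intron in capitals. They were chosen because the isoforms of UNG (chr14:41746963-41747161, minus strand), CDH13 (chr6:4808600-4808755, minus strand), HSPB6 (chr6:45181774-45181835, minus strand), TMED10 (chr7:98328174-98328221, minus strand) and RPL10 (chrX:124927267-124927371, plus strand) held most of the RNA of their gene in at least 1 gland. The intervals are those of the introns.
UNG, 5′ end: atctggaaagGCcccctttt
UNG, 3′ end: ctggggaaAGggagctggat
CDH13, 5′ end: tgtgaaccaaCGaccatcgt
CDH13, 3′ end: ctcacaccAAaatttcctat
HSPB6, 5′ end: agctactccaGTacccctca
HSPB6, 3′ end: ctacccccAGactcttgaac
TMED10, 5′ end: aaaagtggttTCattaattt
TMED10, 3′ end: atgataacTActgcttccaa
RPL10, 5′ end: cttcggcgcgGTgagtagtc
RPL10, 3′ end: ttcgttgcAGccactgaaga
The introns of HSPB6 and RPL10 carry GT and AG, that of UNG carries GC and AG, and those of CDH13 and TMED10 carry neither pair.

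Intron retention was the most frequent kind of change by SQANTI3 label. In 34.4% of 9280 such isoforms no retained intron had at least 30 bp with GT and AG ends. SQANTI3 placed 9537 coding NIC isoforms (57.9%) in its intron retention subcategory, 4337 (26.4%) among new combinations of known splice sites and 2585 (15.7%) among new combinations of known junctions. Of the 964,056 full-length reads on coding NIC isoforms, intron retention took 59.3%, splice site combinations 12.4% and junction combinations 28.3%. Junction combinations therefore had more reads per isoform, with a median of 14 full-length reads against 4 for splice site combinations and 5 for intron retention. By TPM, splice site combinations took 17.0% ± 0.570 (SD, n = 6) of the coding NIC RNA in testis and 10.7% to 11.5% in the other glands.

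The encoded protein was mostly not identical to an annotated one. A coding sequence identical to that of an Ensembl transcript of the gene was found for 2231 isoforms (13.6%, Wilson 95% interval 13.04 to 14.1%), which thus differed in their UTRs alone. Another 3646 (22.2%) shared start and stop codon with an Ensembl transcript and took another path between them. The stop codon but not the start was shared by 36.7%, the start but not the stop by 18.3%, and neither by 9.03%. The 3 subcategories differed in this, as shown in the plot of coding sequences by subcategory. Start and stop were both kept, or the whole sequence was identical, in most junction combinations (45.4% with another path and 18.9% identical), whereas 41.5% of intron retention isoforms had another start. The coding sequence was shorter than the longest Ensembl one of the gene in 86.3% of isoforms and longer in 5.75%. Absence of predicted NMD is part of how the isoforms were chosen, so that a preserved reading frame is partly given.

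**Figure D1:**
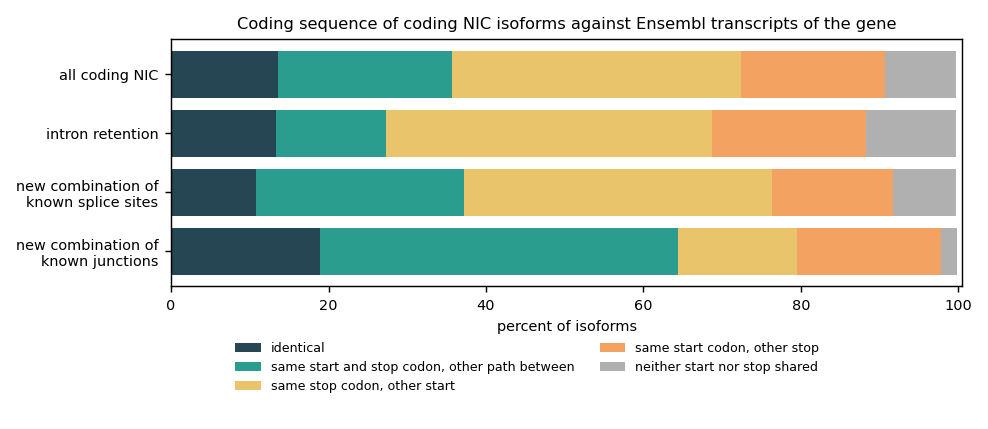
Share of coding NIC isoforms, in percent, by how their predicted coding sequence relates to those of Ensembl transcripts of the same gene, for all 16,459 isoforms and for the 3 SQANTI3 subcategories. Identical or start-and-stop-preserving sequences took a larger part of junction combinations (18.9% and 45.4%) than of intron retention isoforms (13.4% and 13.9%), and the few isoforms of genes without an Ensembl coding sequence are not drawn.

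New junctions mostly skipped exons. Of the 4693 new junctions in splice site combinations, 93.7% jumped over at least 1 Ensembl exon and 62.2% over exactly 1. The single skipped exons had a median length of 116 bp, and 43.3% (Wilson 95% interval 41.5 to 45.1%) were a multiple of 3 long. Among the splice site combinations described below, those of CYB5A, TEAD1, CAMK1D, U2SURP, SLC25A42 and GBGT1 skipped 1 exon and those of PI4KA and JADE3 skipped 2. In the intron retention subcategory, the isoforms of SYCP3 and ACTA2 also skipped 1 exon and that of OPLAH skipped 2.

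Retained introns were short. In the intron retention subcategory 9410 isoforms retained at least 1 Ensembl intron by their coordinates, 5040 of them (53.6%) exactly 1. Of 17,784 retained introns, counted once in each isoform, 44.6% lay in the 5′ UTR, 22.9% in the 3′ UTR, 15.5% in the coding sequence and 17.0% across an end of it. Their median length was 147 bp, against 1413 bp for all Ensembl introns of the same genes. In the coding sequence the median was 38 bp, and 53.0% of these introns were a multiple of 3 long against 31.4% of those elsewhere. For introns of at least 30 bp in the coding sequence the share was 71.4%. An intron counted as coding only if it lay inside the predicted coding sequence of the isoform itself, and isoforms with predicted NMD were left out. Both requirements favour introns that keep the reading frame, so this contrast is partly given by the selection. The shortest included introns of 1 to 4 bp, such as those printed for MEA1, MIIP and SPACA3, which also place an isoform in the intron retention subcategory. Introns under 30 bp were 14.7% of all retained introns and 43.4% of those in the coding sequence. Whether the shortest are introns or interruptions of the Ensembl models was not tested. The limit of 30 bp was set after their lengths had been seen.

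The ends of these introns differed from those of ordinary introns. Of 1253 distinct retained introns under 30 bp, with a median of 2 bp, GT and AG ends were found in 2.47%. Among 8488 distinct retained introns of at least 30 bp the share was 76.5% (Wilson 95% interval 75.6 to 77.4%), and among all 106,029 distinct Ensembl introns of that length in the same genes it was 93.5%. Counted by isoform, 65.6% of 9280 intron retention isoforms had at least 1 retained intron of at least 30 bp with GT and AG ends. In 948 isoforms (10.1%) every retained intron was under 30 bp, and those present in the TPM table took 3.91% to 13.2% of the TPM of coding NIC isoforms in a library, with a median of 4.99%.

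Coding NIC isoforms lay between other classes in how often they were seen. They are set beside 38,726 coding isoforms with at least 1 unannotated splice site (NNC), 6953 coding full splice matches (FSM), both without predicted NMD, and 5586 coding NIC isoforms with predicted NMD. They had a median of 5 full-length reads, FSM 23 and NNC and NMD isoforms 3 each. They were found in all 10 Iso-seq libraries for 13.2%, against 26.9% of FSM, 3.41% of NNC and 4.35% of NMD isoforms. Only 1 library held 11.9% of them and 21.6% of NNC isoforms. Their 5′ end lay at an annotated start for 85.6%, against 67.7% of NNC and 93.5% of FSM isoforms. A polyA motif was found for 81.4% of coding NIC isoforms, 82.6% of NNC and 87.5% of FSM isoforms, so that this feature was the lowest here. At least 60% A in the 20 bases of genome after the 3′ end was present in 24.04% of coding NIC and 16.7% of FSM isoforms. These shares describe isoforms, which are not replicates, and were not tested. In the single Iso-seq libraries, which held 231,413 to 458,697 full-length reads, coding NIC isoforms numbered 6667 to 8241 and took 24.2% to 30.9% of the reads. Intron retention isoforms were 52.1% and 52.8% of them in the testis libraries and 56.3% to 63.2% elsewhere.

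Relative to all RNA, coding NIC isoforms were least abundant in vesicular gland. They took 4.63% to 7.89% (median 5.27%) of the TPM in vesicular gland, 10.004% to 12.3% (10.7%) in testis, 8.30% to 14.0% (11.5%) in epididymis, 6.40% to 10.7% (8.31%) in prostate gland and 8.48% to 11.0% (10.1%) in bulbourethral gland, each over 6 libraries. Vesicular gland did not overlap with testis, epididymis or bulbourethral gland. Two-sided exact permutation tests over 10 pairs of glands, with Benjamini-Hochberg adjustment, called testis above vesicular gland by 5.26 points (adjusted p = 0.00722) and above prostate gland by 2.45 points (adjusted p = 0.0216). They also called vesicular gland 5.75 points below epididymis, 4.14 points below bulbourethral gland (adjusted p = 0.00722 for both) and 2.81 points below prostate gland (adjusted p = 0.0216). Testis minus prostate gland was no longer called when only isoforms with at least 5 full-length reads were counted (2.08 points, adjusted p = 0.0519, exact test) or those with only retained introns under 30 bp were left out (1.61 points, adjusted p = 0.115, exact test). These values depend on a few very abundant transcripts. Without the 10 most abundant transcripts, testis was below prostate gland (testis minus prostate gland -3.18 points, adjusted p = 0.0271, exact test). Testis minus vesicular gland was then -0.976 points (adjusted p = 0.214, exact test) and epididymis minus vesicular gland -0.538 points (adjusted p = 0.608, exact test).

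Within genes, coding NIC isoforms took a smaller part in testis than elsewhere. This was measured over 1 fixed set of 5386 genes that had such an isoform, at least 2 transcripts and a mean of at least 1 TPM in every gland, each gene with equal weight. The mean share of gene TPM was 30.4% to 33.3% (median 31.3%) in testis, 31.6% to 35.1% (34.7%) in epididymis, 32.7% to 34.9% (34.4%) in vesicular gland, 33.5% to 35.4% (35.4%) in prostate gland and 32.3% to 35.2% (34.9%) in bulbourethral gland. Testis was lower by 2.58 points than epididymis (adjusted p = 0.0325, exact permutation test over 6 against 6 libraries) and by 2.64, 3.597 and 2.90 points than vesicular, prostate and bulbourethral gland (adjusted p = 0.0144 for each). The other 6 pairs gave adjusted p of 0.160 to 0.955. Coding NIC isoforms were 23.4% of the 58,514 transcripts of these genes. Counting only isoforms with at least 5 full-length reads, all 4 differences kept their sign at -1.49 to -2.80 points and none was called. With genes of at least 5 TPM in each gland, testis minus epididymis was -2.03 points and was no longer called (adjusted p = 0.0649, exact test).

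Testis was also lowest for the main transcript, the transcript with the highest TPM of its gene. It was a coding NIC isoform in 32.2% ± 1.32 of the 5386 genes in testis, 34.7% ± 1.13 in vesicular gland, 34.7% ± 2.09 in epididymis, 35.3% ± 1.61 in bulbourethral gland and 36.1% ± 1.004 in prostate gland (mean ± SD over n = 6 libraries). Testis differed from vesicular, prostate and bulbourethral gland (adjusted p = 0.0361 for each, exact permutation test) but not beyond the threshold from epididymis (adjusted p = 0.0866). Leaving out any of 5 of the 6 testis libraries, all but DSE testis 2, ended all 3 calls, with differences that kept their sign. Counting only isoforms with at least 5 full-length reads also ended all 3 (adjusted p = 0.108 for prostate gland and 0.296 for the others, exact test). With genes of at least 5 TPM in each gland, the calls against vesicular and bulbourethral gland were lost (-1.64 and -2.25 points, adjusted p = 0.0974 for both, exact test). In every gland the library with the lowest transcript integrity, as ranked by the integrity number in the quality table of the study, had the lowest mean share of gene TPM and the lowest percent of genes with a coding NIC main transcript (5 of 5 glands). These are DSE testis 1, DSE epididymis 1, DSE vesicular gland 1, BMI prostate gland 3 and DSE bulbourethral gland 2. Without them 7 pairs in place of 4 were called for the mean share and 5 in place of 3 for the main transcript. The part of RNA integrity in these values was not tested.

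**Figure D2:**
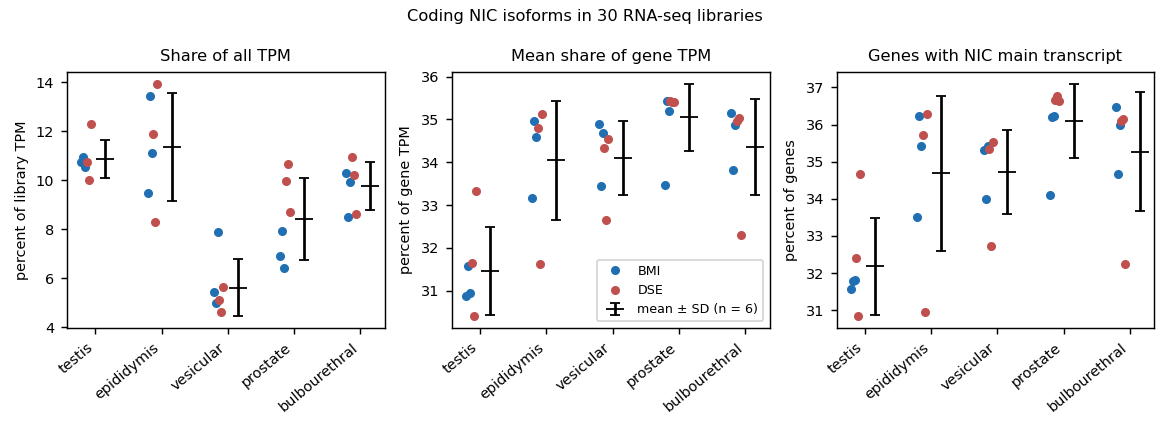
Values of coding NIC isoforms in each RNA-seq library by gland, as percent of all TPM of the library (left), mean percent of gene TPM over 5386 genes (middle) and percent of the same genes whose main transcript is a coding NIC isoform (right), with points for libraries coloured by breed and bars for mean ± SD over 6 libraries. Vesicular gland is lowest at left (5.62% on average) and testis in the other panels (31.5% and 32.2%), and the vertical axes do not start at 0.

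By mean TPM over the 6 libraries of a gland, a coding NIC isoform was the main transcript of 1740 genes in testis, 1907 in vesicular gland, 1952 in bulbourethral gland, 1966 in epididymis and 1993 in prostate gland. An Ensembl transcript was the main transcript in 42.4% to 44.4% of the genes and an NNC isoform in 19.1% of the genes in testis and 14.5% to 15.7% in the other glands. The same coding NIC isoform was main in all 5 glands in 1271 genes (23.6%) and in all 30 libraries in 553 genes. In 3019 genes (56.1%) none was main in any gland. Counts were highest for testis in both directions. In 116 genes a coding NIC isoform was main in testis alone, whereas 37 to 42 genes had this pattern in another single gland. In 258 genes one was main in the other 4 glands but not in testis, whereas the corresponding number was 15 to 38 for the other glands. In every library alike, 11 genes had a coding NIC main transcript in 6 of 6 testis libraries and in 0 of the 24 others, and 24 genes had the opposite pattern. Other classes gave such counts too. An Ensembl transcript was main in testis alone in 156 genes (29 to 56 in another single gland) and in all but testis in 201 (13 to 40), and for NNC isoforms the numbers were 284 (16 to 42) and 77 (17 to 35). By library, 20 genes had an Ensembl and 26 an NNC main transcript in 6 of 6 testis libraries and 0 of the 24 others, and 12 and 14 had the opposite pattern.

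Isoforms that were main differed in structure from those that were not. The 2603 that were main in at least 1 gland had a median of 61 full-length reads, against 4 for the other 11,102 isoforms of these genes. Junction combinations were 30.0% of them (Wilson 95% interval 28.2 to 31.8%) against 12.3% (11.7 to 12.9%), and intron retention 50.4% against 61.3%. A coding sequence identical to an Ensembl one was found in 30.0% against 9.74%, and start and stop were both kept, identical sequences included, in 62.8% against 28.5%. Among intron retention isoforms, the main ones had a retained intron of at least 30 bp with GT and AG ends in 33.9% of 1274 cases (31.4 to 36.6%), against 73.4% of 6631 (72.4 to 74.5%) for those main in no gland. Most main intron retention isoforms thus kept introns that lack these ends or are shorter than 30 bp.

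Full-length reads and TPM often named the same main isoform. A coding NIC isoform had the most full-length reads of its gene in both Iso-seq libraries of a gland in 1556 to 1745 genes, 43.0% to 45.96% of the genes in which 1 isoform led in both. Of these it was also the main transcript by TPM in 63.0% in testis (Wilson 95% interval 60.7 to 65.3%) and in 65.3% to 66.3% in the other glands. An Ensembl transcript was main by TPM in 23.4% to 25.1%.

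The most abundant coding NIC isoforms encoded ribosomal proteins, whose genes have near-identical copies in the genome, so their TPM is uncertain. RPL10, a protein of the large ribosomal subunit, had an isoform of 849 bp (chrX:124927249-124929791) that retained the GT to AG intron printed above in its 5′ UTR. It had 11 full-length reads, 0 of them from testis and 1 from bulbourethral gland, and a mean of 2621 TPM over 30 libraries. Its share of gene TPM was 93.8% to 96.9% in testis, 94.0% to 97.2% in epididymis and 94.0% to 97.2% in bulbourethral gland. BMI vesicular gland 1 (68.5%) and BMI prostate gland 3 (60.3%) were far below the other libraries of their glands. RPL27A, RPS24, RPL28 and RPS3 followed with means of 2186, 1715, 1586 and 1575 TPM and with 29, 10, 3 and 45 full-length reads. All 4 were new combinations of known junctions and held 82.0% to 99.3% of their gene in every library. The coding sequences of RPS24 and RPL28 were identical to an Ensembl one.

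In testis, the most highly expressed genes led by a coding NIC isoform in every library were CYB5A, MEA1 and MGST1. CYB5A encodes cytochrome b5, an electron donor that aids androgen synthesis in Leydig cells. Its isoform (chr1:149737535-149774532) skipped 1 exon at the junction printed above and had a coding sequence of 405 bp, against 417 bp for the longest Ensembl one. In testis it had 989.2, 1214 and 2891 TPM as lowest, median and highest value, and 18.9 to 200.1 TPM in the 24 other libraries. All testis libraries lay above all others, and the difference was 4.35 ± 0.315 (log2(TPM + 1) scale, SE, adjusted p = 1.21e-11, limma). Its share of the gene was 76.0% to 99.5% in testis and 59.1% to 98.9% elsewhere, so the share overlapped and was not called (adjusted p = 0.62). MGST1, a microsomal glutathione transferase, had 1015, 1249 and 2029 TPM in testis, at 85.5% to 89.1% of its gene. Its isoform kept a known coding sequence of 468 bp.

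MEA1, male-enhanced antigen, changed in both respects. Its isoform (chr7:38078309-38080207) kept the 2 bp printed above and shared the stop but not the start codon with Ensembl. It held 82.3%, 84.5% and 87.5% of the gene in testis, with 447.0, 1497 and 1768 TPM. In the other glands it had 0 to 60.5 TPM and 0% to 89.4% of the gene, so that single vesicular and prostate gland libraries reached the testis range. The share was 50.7 ± 9.93 points higher in testis (SE, adjusted p = 0.000323, limma). Of its 93 full-length reads, 92 came from the testis libraries.

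Transcripts were then compared between each gland and the mean of the other 4 with limma on log2(TPM + 1), and called at an adjusted p below 0.05 and a difference of at least 1. At least 3 libraries had to reach 1 TPM, and of the 64,661 transcripts that did so 9578 were coding NIC isoforms, out of 15,729 in the table. In testis 1860 of them were called higher (19.4%), against 28.4% of all transcripts tested. In epididymis 902 (9.42%) were called against 9.63% of all, in vesicular gland 176 (1.84%) against 2.49%, in prostate gland 265 (2.77%) against 2.6%, and in bulbourethral gland 677 (7.07%) against 6.37%. The share was therefore below that of all transcripts in testis and vesicular gland, and near it in the other 3 glands. The median difference in testis was -0.15 for coding NIC isoforms and 0.06 for all transcripts, and in vesicular gland -0.37 and -0.40 (log2). Counts of higher isoforms depended on the scaling and the pseudocount. After median-of-ratios size factors they were 443 in epididymis (4.63%, all 5.34%), 459 in vesicular gland (4.79%, all 5.24%), 306 in prostate gland (3.19%, all 2.84%) and 442 in bulbourethral gland (4.61%, all 4.26%). With a pseudocount of 0.1 they were 1460 in epididymis (15.2%, all 15.5%), 354 in vesicular gland (3.7%, all 4.33%), 584 in prostate gland (6.1%, all 5.32%) and 1195 in bulbourethral gland (12.5%, all 10.8%). Testis stayed below the background in both cases, at 20.5% against 29.4% and at 24.6% against 34.9%.

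The share of gene TPM, or usage, was compared in the same way and called from 10 percentage points. In testis 670 of 8012 coding NIC isoforms tested were called higher (8.36%), against 11% of all 46,642 transcripts tested, and 827 lower (10.3%), against 8.42% of all. Higher usage was called in epididymis for 144 (1.80%, all 1.81%), in vesicular gland for 182 (2.27%, all 2.19%), in prostate gland for 175 (2.18%, all 1.43%) and in bulbourethral gland for 177 (2.21%, all 1.76%). Lower usage was called in epididymis for 141 (1.76%, all 1.87%), in vesicular gland for 161 (2.01%, all 1.96%), in prostate gland for 74 (0.924%, all 1.37%) and in bulbourethral gland for 104 (1.30%, all 1.69%). Coding NIC isoforms were thus called lower more often than higher in testis, and higher more often than lower in prostate and bulbourethral gland. The other glands were near the background in both directions. Among called isoforms with a gene symbol, all 6 testis libraries lay beyond all 24 others for 162 of 635 higher and 136 of 768 lower ones. These are 2.13% and 1.79% of the 7608 coding NIC isoforms tested in genes with a symbol, against 3.82% and 1.53% of all 42,066 such transcripts. In epididymis it was 5 higher (all transcripts 0.0475%) and 3 lower (all 0.0214%), in vesicular gland 3 higher and 2 lower (all 0.0285% each way), in bulbourethral gland 1 higher (all 0.0333%) and 0 lower (all 0.00951%), and in prostate gland 0.

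**Figure D3:**
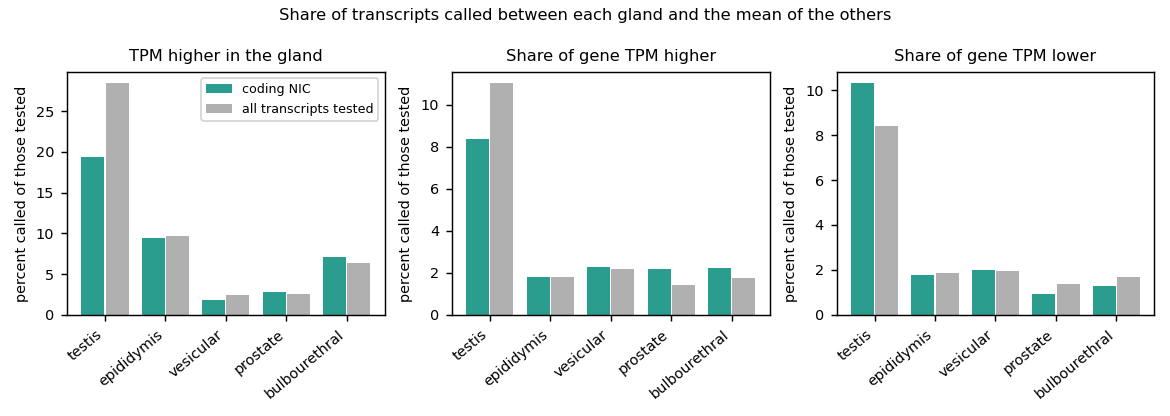
Percent of tested coding NIC isoforms (green) and of all tested transcripts (grey) called between each gland and the mean of the other 4, for higher TPM (left), higher share of gene TPM (middle) and lower share of gene TPM (right). In testis the green bar is below the grey one for higher TPM (19.4% against 28.4%) and higher share (8.36% against 11%) and above it for lower share (10.3% against 8.42%).

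Named isoforms below had the largest usage differences among those whose 6 libraries did not overlap with the 24 others, in genes with at least 5 TPM in every gland. An exact TPM of 0 can be a failed estimate, since salmon divides reads among near-identical isoforms, and is given as listed. In testis UNG, the uracil-DNA glycosylase of base excision repair, had an isoform (chr14:41746499-41757838) with a coding sequence identical to that of Ensembl. It retained an intron of 199 bp with GC and AG ends in its 3′ UTR. Its share of the gene was 79.7%, 89.5% and 91.6% as lowest, median and highest value in testis and 0% to 30.7% in the other libraries. The difference was 78.7 ± 3.12 points (SE, adjusted p = 3.65e-15, limma). It had 2 full-length reads in all, 1 of them from testis. Elsewhere a pair of NNC isoforms held most of the gene, 26.7% to 43.8% and 42.6% to 70.8% on average by gland.

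TOM1, an adaptor that sorts ubiquitinated cargo at endosomes, lies on an unplaced scaffold. Its isoform retained 77 bp in the 5′ UTR and kept a known coding sequence. In testis it held 28.7%, 73.0% and 89.1% of the gene, with the 3 BMI libraries at 83.5% to 89.1% and the 3 DSE libraries at 28.7% to 62.5%. It held at most 17.999% in the other libraries and was listed at 0 in all 12 of vesicular and prostate gland. The difference was 63.7 ± 3.19 points (adjusted p = 2.51e-13, limma). Full-length reads did not follow this pattern, since 160 came from testis, 197 from epididymis and 117 from vesicular and prostate gland. ARHGEF2, a guanine nucleotide exchange factor bound to microtubules, had an isoform at 48.7% to 90.4% in testis and at most 1.23% elsewhere (61.9 ± 3.06 points, adjusted p = 2.1e-13). All 28 of its full-length reads came from testis, but its 3′ end lay before a stretch of 90% A without a polyA motif, and its 5′ end not at an annotated start.

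CDH13, the cadherin that is anchored to the membrane by a lipid, showed the largest fall in testis. Its isoform (chr6:4808248-5832511) kept a known coding sequence and retained 156 bp of the 3′ UTR without GT and AG ends. It held 0%, 1.39% and 17.2% of the gene in testis, and 71.4% to 100% in every other library. The difference was -85.9 ± 4.28 points (adjusted p = 2.38e-13, limma). An NNC isoform held 36.9% of the gene in testis on average and at most 8.46% in another gland. Full-length reads of the isoform numbered 11 in the testis libraries and 217 in the others.

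In epididymis 3 isoforms rose and 1 fell by the same rule. FBXO7, a substrate adaptor of ubiquitin ligases, had a junction combination at 21.6%, 36.9% and 66.1% of its gene in epididymis and 0% to 16.3% elsewhere (33.7 ± 4.13 points, adjusted p = 1.25e-05, limma). Full-length reads did not follow, with 3 of 14 from epididymis, 6 from testis and 4 from bulbourethral gland. TEAD1, a transcription factor of the Hippo pathway, skipped 1 exon at the junction printed above and held 22.6%, 32.4% and 47.8%, against 0% to 19.9% (27.6 ± 3.87 points, adjusted p = 6.59e-05). Its 3′ end lay before a stretch of 75% A, and of its 29 full-length reads 11 came from epididymis and 10 from bulbourethral gland. OPLAH, an enzyme of the glutathione cycle, had an isoform with 2 full-length reads, 1 from epididymis and 1 from bulbourethral gland, at 10.6% to 40.2%, against at most 7.82% (20.1 ± 1.76 points, adjusted p = 1.1e-07). SUCLA2, a subunit of succinyl-CoA synthetase in mitochondria, fell in epididymis. Its isoform, with 641 full-length reads, held 67.3%, 79.4% and 90.3% of the gene there and 91.7% to 99.7% elsewhere (-18.2 ± 2.28 points, adjusted p = 1.68e-05), and it led the gene in all 30 libraries.

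In vesicular gland ADD3 (gamma-adducin, which caps actin at the membrane skeleton) had an isoform with a known coding sequence that held 71.0%, 79.1% and 83.7% of its gene, against 0% to 67.9% elsewhere. The difference was 35.5 ± 6.26 points (adjusted p = 0.000841, limma). In bulbourethral gland it held 0% to 34.2%, without a full-length read, and another coding NIC isoform held 66.7% on average. PI4KA, a phosphatidylinositol kinase, had an isoform at 13.5% to 24.7% against at most 4.96% (16.8 ± 1.05 points, adjusted p = 6.81e-10), with 1 full-length read from vesicular gland and 1 from testis. NAP1L4, a histone chaperone, had an isoform that retained 4 introns of the 3′ UTR at 15.5% to 32.4% against at most 14.99% (14.2 ± 1.43 points, adjusted p = 7.9e-07), and its full-length reads came from all glands, 23 from vesicular gland and 21 from prostate gland. HSPB6, a small heat shock protein of muscle, fell. Its isoform, which retained the intron of 62 bp printed above, held 60.9%, 68.4% and 72.4% in vesicular gland and 74.7% to 100% elsewhere (-27.7 ± 3.23 points, adjusted p = 6.99e-06), and an isoform of another class held 32.5% on average in vesicular gland. Smooth muscle markers summed to 649.0 to 5109 TPM in vesicular gland and to 140.5 to 24,660 TPM over the other glands, and their part in the share was not tested.

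In bulbourethral gland LMO7, a protein of cell junctions and actin, had a junction combination at 7.14%, 11.8% and 16.7% of its gene, against 0% to 3.73% elsewhere (11.4 ± 0.704 points, adjusted p = 3.71e-10, limma). Of its 28 full-length reads, 17 came from bulbourethral gland and 10 from DSE prostate gland, where its share was at most 3.73%. In prostate gland 0 of the 42,066 transcripts tested in genes with a symbol, coding NIC isoforms included, were called with all libraries beyond all others.

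**Figure D4:**
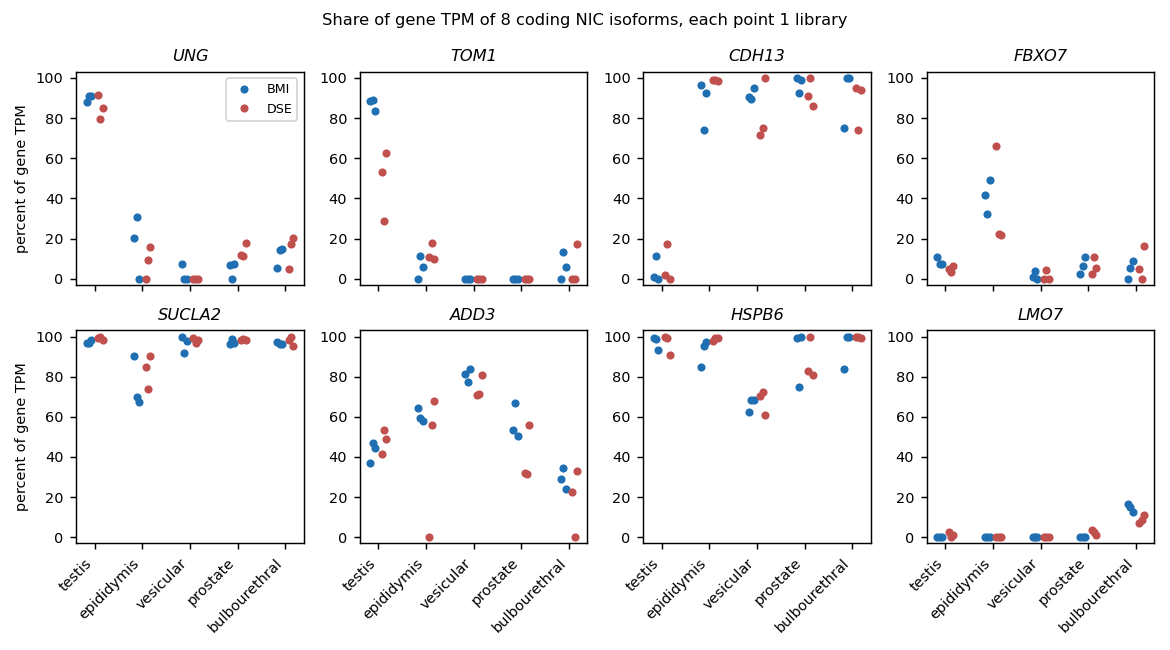
Share of gene TPM, in percent, of 8 coding NIC isoforms in each of the 30 RNA-seq libraries by gland, coloured by breed. UNG and TOM1 are high in testis and CDH13 is low there, FBXO7 is high and SUCLA2 low in epididymis, ADD3 is high and HSPB6 low in vesicular gland, and LMO7 reaches 16.7% in bulbourethral gland.

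Between breeds, the amount of coding NIC isoforms was not called different. Over all glands, DSE minus BMI was 0.478 points for the share of all TPM (p = 0.378), -0.00558 points for the mean share of gene TPM (p = 0.989) and 0.0165 points for the main transcript (p = 0.977), by exact tests that permuted breed within glands. Within a gland 3 against 3 libraries cannot give an exact p below 0.1. That value was reached in prostate gland for the share of all TPM, which was 9.78% ± 0.998 in DSE and 7.07% ± 0.777 in BMI (n = 3 each), and for the main transcript, at 36.7% ± 0.0742 in DSE and 35.5% ± 1.22 in BMI. Without the library of lowest integrity in each gland, 4 of which were DSE, DSE exceeded BMI by 0.533 points in the mean share (p = 0.0479) and by 0.831 points for the main transcript (p = 0.00806, exact tests).

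Few single isoforms were called between the breeds, which does not show that the breeds are alike. On log2(TPM + 1), with an absolute difference of at least 1, limma called 32 of 5337 coding NIC isoforms in testis (background 0.692% of all transcripts tested), 0 of 5921 in epididymis (0.00288%), 5 of 4291 in vesicular gland (0.243%), 19 of 5140 in prostate gland (0.486%) and 7 of 5571 in bulbourethral gland (0.193%). In epididymis 138 of the 5921 had an unadjusted p below 0.05 (limma), fewer than the 1 in 20 that chance alone would give on average. The median difference was -0.38 in vesicular gland and 0.37 in prostate gland, as it was for all transcripts (-0.36 and 0.37), and changes there are read beside that shift. For the share of gene TPM limma called 4 of 8012 in testis (background 0.0965%), 0 in epididymis (0.0107%), 2 in bulbourethral gland (0.0364%), 4 in vesicular gland (0.0665%) and 6 in prostate gland (0.075%). In epididymis 331 of the 8012 had an unadjusted p below 0.05, again fewer than 1 in 20. All shares called were at or below the background. On log2(TPM + 1), leaving out any 1 of the 6 libraries left 0 calls in bulbourethral gland (all transcripts at most 0.00352%) and 0 or 1 in vesicular gland (all at most 0.0485%). In testis 0 were left without any 1 of the BMI libraries (all transcripts at most 0.00553%). Without DSE testis 1, 2 and 3 they were 12 (0.237%, all 0.49%), 22 (0.445%, all 0.628%) and 7 (0.142%, all 0.35%). In prostate gland 0 were left without any 1 of the DSE libraries (all 0%). Without BMI prostate gland 1, 2 and 3 they were 3 (0.0621%, all 0.0633%), 71 (1.45%, all 1.42%) and 4 (0.0826%, all 0.0891%). One fit of all 30 libraries, which shares the spread among glands, called 252 of 9578 in testis (2.63%, all transcripts 4.96%), 54 in epididymis (0.564%, all 0.707%), 23 in vesicular gland (0.24%, all 0.37%), 41 in prostate gland (0.428%, all 0.455%) and 32 in bulbourethral gland (0.334%, all 0.441%).

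Each isoform named below lost its call without at least 1 of the 6 libraries of its gland. The isoforms called for usage between breeds were often listed at 0 in all libraries of 1 breed. In testis EMSY, a chromatin regulator, had an isoform at 23.6%, 23.1% and 20.7% of its gene in the 3 BMI libraries and at 0% in the 3 DSE libraries (-22.5 ± 0.888 points, SE, DSE minus BMI, adjusted p = 0.0211, limma). It had 4 full-length reads in DSE testis and 1 in BMI testis. MIIP, an inhibitor of cell migration, was at 13.4%, 12.1% and 14.8% in BMI and 0% in DSE (adjusted p = 0.0346), and its isoform kept the 2 and 4 bp that 1 Ensembl model leaves out, while its coding sequence was identical to that of another. CAMK1D, a calcium-dependent kinase, was at 10.2%, 11.0% and 11.9% in BMI and 0%, 0% and 1.07% in DSE (adjusted p = 0.0349), without a full-length read in testis. Its 3′ end lay before a stretch of 70% A without a polyA motif.

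In vesicular gland SNX24, a sorting nexin, showed the largest difference. Its isoform was at 100%, 81.6% and 84.3% in DSE and at 0% in all 3 BMI libraries (88.6 ± 5.37 points, adjusted p = 0.0455, limma). Full-length reads did not follow, with 10 in the BMI and 2 in the DSE vesicular gland library. OGT, the enzyme that attaches O-linked N-acetylglucosamine, was at 10.8%, 10.6% and 11.9% in BMI and 0% in DSE (adjusted p = 0.0214), while the DSE library held 19 full-length reads and the BMI library 34. U2SURP, a factor of the U2 snRNP, was at 17.8%, 18.7% and 17.1% in BMI and 0%, 0% and 2.58% in DSE (adjusted p = 0.0395), with 8 full-length reads in BMI and 0 in DSE, and its 3′ end lay before a stretch of 65% A. AKNA, a DNA-binding protein with an AT-hook, was at 45.7%, 39.98% and 40.6% in BMI and 0% in DSE (adjusted p = 0.0156), in a gene at 1.67 and 0.767 TPM.

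In prostate gland GBGT1, a glycosyltransferase, was at 35.8%, 37.4% and 33.0% in BMI and 0% in DSE (-35.4 ± 1.25 points, adjusted p = 0.00864, limma). SLC25A42, a mitochondrial coenzyme A carrier, was at 44.6%, 53.1% and 52.5% in BMI and 2.38%, 0% and 0% in DSE (adjusted p = 0.03). HIP1R, which links clathrin coats to actin, was at 16.2%, 16.7% and 19.4% in DSE and 0% in BMI (adjusted p = 0.0309), although the BMI library held 8 of its full-length reads and the DSE library 2. ZNF286A, a zinc finger protein, was at 24.2%, 24.99% and 23.5% in DSE and 3.62%, 0% and 0% in BMI (adjusted p = 0.03), with 0 full-length reads in DSE and 1 in BMI. GBGT1 and SLC25A42 had 0 full-length reads in prostate gland in either breed. In bulbourethral gland RSPRY1, a protein with RING and SPRY domains whose isoform kept the 84 bp printed above, was at 36.5%, 32.7% and 35.2% in BMI and 0% in DSE (-34.8 ± 1.07 points, adjusted p = 0.008), while its full-length reads numbered 21 and 11. JADE3, a PHD finger protein, was at 15.9%, 16.1% and 17.1% in DSE and 0%, 0% and 1.76% in BMI (adjusted p = 0.0293), with 5 full-length reads in DSE and 6 in BMI. Of these isoforms, 8 were listed at 0 in all 3 libraries of 1 breed, and 6 of those 8 had full-length reads in that breed and gland, AKNA and GBGT1 being without.

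**Figure D5:**
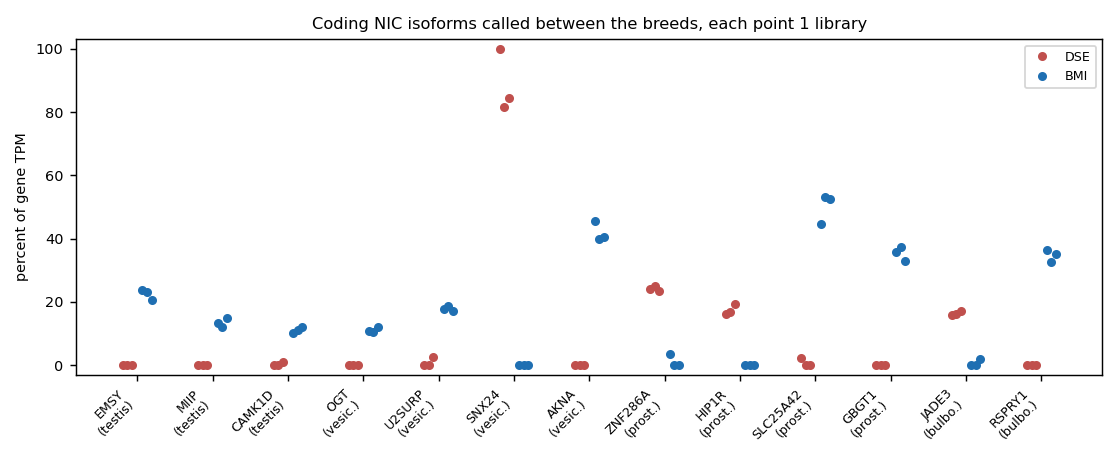
Share of gene TPM, in percent, of 13 named coding NIC isoforms called between breeds, in the gland where they were called, with 3 DSE and 3 BMI libraries each. The breeds do not overlap for any of them, and SNX24 has the widest gap (88.6% and 0%).

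Gene lists typed from general knowledge were described by counts. A coding NIC isoform was found for 39.1% of the 15,686 genes with a symbol and a TPM value, was the main transcript in at least 1 gland for 43.6% of 5106 such genes of the fixed set, and was called in usage for 32.9% of 4288 genes tested. Splicing regulators had such an isoform in 37 of 49 genes, as main transcript in 14 of 36 and called in 10 of 30. Genes known for alternative splicing had one in 32 of 49, main in 19 of 30 and called in 18 of 26. Smooth muscle and cytoskeleton genes had one in 37 of 51, main in 23 of 37 and called in 22 of 30. For the secretory pathway the counts were 46 of 72, 20 of 45 and 16 of 32, and for epithelial ion and water transport 13 of 42, 5 of 8 and 1 of 7. Sperm flagellum genes had one in 14 of 34, acrosome genes in 10 of 29 and meiosis genes in 7 of 27. At most 2 genes of each of these 3 lists were expressed in every gland and so entered the fixed set.

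The most abundant isoform was looked at more closely for several lists. HNRNPA1, a repressor of exon inclusion that the TPM table names HNRNPA1L3, had an isoform that held 55.9% to 77.0% of its gene over all 30 libraries, without a call in any gland (adjusted p = 0.322 to 0.771). MYL6, the essential light chain of nonmuscle and smooth muscle myosin, held 44.99%, 56.1% and 63.5% in bulbourethral gland, 72.7% to 83.2% in vesicular gland and 61.6% to 81.2% in the others. Usage was lower in bulbourethral gland by 19.2 points (-19.2 ± 2.76, adjusted p = 8.69e-05, limma) and higher in vesicular gland (11.3 ± 2.76, adjusted p = 0.0125), where the call was lost without BMI vesicular gland 3 (10.2 points, adjusted p = 0.0509, limma). Its full-length reads came from all glands, 27 from vesicular and 11 from bulbourethral gland. TMED10, a cargo receptor between endoplasmic reticulum and Golgi, had 9140 full-length reads and held 94.0% to 99.2% of its gene in every library. ACTA2, the smooth muscle actin, had 412.2, 1347 and 3063 TPM in epididymis and 2.59 to 861.2 TPM elsewhere. Its share of the gene ranged from 3.05% to 82.1% with no call between glands.

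SEC31A, a coat protein of vesicles leaving the endoplasmic reticulum, was the gene with the most coding NIC isoforms. Its leading isoform held 0% to 19.6% of the gene.

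From the lists of sperm and meiosis genes, isoforms of ODF2, SYCP3 and SPACA3 were found almost solely in testis. The ODF2 isoform, from a gene of the outer dense fibres of the sperm tail, had 117.0, 322.2 and 520.9 TPM in testis and at most 1.27 TPM elsewhere. It held 16.2% to 26.2% of the gene in testis and 0% to 10.5% in the other libraries (20.3 ± 0.974 points, adjusted p = 1.16e-13, limma), and 189 of its 190 full-length reads came from testis. SYCP3, a component of the synaptonemal complex, skipped 1 exon at the junction printed above, and its isoform had 38.8, 126.3 and 158.8 TPM in testis at 88.4% to 93.7% of the gene. In vesicular, prostate and bulbourethral gland it was listed at 0 in every library. The whole gene had a median of 141.9 TPM in testis, 0.0364 TPM in epididymis and 0 TPM in those 3 glands, so this does not set the isoform apart from its gene. SPACA3, a lysozyme-like protein of the acrosome, had 53.8, 176.0 and 273.2 TPM in testis at 80.2% to 88.8% of the gene, and its isoform kept the 1 bp that the Ensembl model leaves out while keeping a known coding sequence.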

How the data were processed

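RNA of 5 reproductive glands of 12-month boars of 2 breeds was sequenced as 10 Iso-seq and 30 RNA-seq libraries. The library labels name rRNA depletion and the methods of the study poly-T purification for the RNA-seq. Per the study's methods, the authors clustered full-length reads with IsoSeq3, aligned them to Sscrofa11.1 with GMAP, collapsed them with cDNA_Cupcake and classified them with SQANTI3 against Ensembl. The submitters' processing notes also name GSNAP 2018-07-04, STAR 2.7.10a, Bowtie 1.3.1 and Salmon 1.9.0. The authors deposited whole-number counts of full-length reads per isoform and library, the percent of A after each 3′ end, and TPM of Ensembl transcripts together with Iso-seq isoforms other than full or incomplete splice matches, as estimated by salmon. TPM keeps no depth, and the read totals of the RNA-seq libraries in the study's quality table were not used here. Small RNA values were not used here.

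Isoforms were taken from the SQANTI3 columns, and their exons and coding sequences were compared with Ensembl transcripts in the deposited annotation. All 16,261 coding sequences on the chromosomes of the reference translated to the deposited protein. TPM was tested as log2(TPM + 1) with limma 3.58.1 in R 4.3.3, for transcripts that reached 1 TPM in 3 or more libraries. The share of gene TPM was tested with limma on the percent scale, for transcripts with a share of at least 5% in at least 3 libraries. Benjamini-Hochberg adjustment covered all transcripts tested, and calls needed an adjusted p below 0.05 with a log2 difference of at least 1 or at least 10 points. Glands were compared over all 30 libraries, each with the mean of the other 4, and breeds within each gland. Summary values were tested with two-sided exact permutation tests (scipy 1.17.1), and Wilson intervals cover counting error only. The scripts were tested on simulated data, where the tests between glands recovered most planted changes, the breed test on shares did so for a change far above the threshold for a call (smaller ones were not planted), and the breed test on log2 values in testis did not recover them. The labels do not pair libraries, and same-numbered libraries of 2 glands had a median correlation of deviations of 0.0449, with 18 of 60 pairs above 0.1. For libraries of different number the median was -0.0131, with 23 of 120 pairs above 0.1. Libraries were ranked by the transcript integrity number in the study's quality table.

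Isoforms were named by rule, 1 per gene: the 5 highest by mean TPM, for each gland the 3 most expressed genes led by such an isoform in all 6 libraries at 50% or more, the 3 largest rises and the largest fall in share without overlap in genes of at least 5 TPM in every gland, the largest breed differences of each gland (all, where 5 or fewer were called), the isoform with the most full-length reads, the gene with the most isoforms, and the most abundant isoform of each of 8 gene lists. Members and lists were chosen with earlier results of these data known. The alternatives with the lowest-integrity libraries left out and with short retained introns left out were chosen after seeing the data. Some isoforms and sequences that the rule would name are not reported here.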

Additional observations from a re-analysis of the deposited data

Results flagged for a closer look

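Single libraries stood apart from the other 5 of their gland, by Dixon's criterion, in 8 of 43 groups examined, where chance flags about 1 in 20. In vesicular gland, BMI 2 had the highest share of all TPM on coding NIC isoforms (7.89%), and BMI 1 the lowest shares of gene TPM for RPL10 (68.5%) and RPL27A (98.4%). In prostate gland BMI 3, the library of lowest integrity there, had the lowest mean share of gene TPM (33.5%), the lowest percent of genes with a coding NIC main transcript (34.1%) and the lowest share for RPL10 (60.3%). In bulbourethral gland DSE 3 had the lowest share for RPS24 (88.2%), and in testis DSE 3 the highest for ARHGEF2 (90.4%).

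Breed differences of opposite direction in 2 glands, without overlap of the breeds in either, were seen for 4 isoforms, and the difference between the glands was not tested. DSE minus BMI was 2.44 points in prostate gland and -5.83 points in bulbourethral gland for LMO7. It was 23.0 points in prostate gland and -32.8 points in vesicular gland for ZNF286A. For GBGT1 it was 15.6 points in vesicular gland, -9.14 points in testis and -35.4 points in prostate gland. For JADE3 it was 15.8 points in bulbourethral gland and -7.22 points in epididymis.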

How the results depend on the processing

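The 13 isoforms named for the largest usage differences between glands, and those of CYB5A (log2), MEA1, ODF2 and MYL6 in bulbourethral gland, were called under all 34 alternatives run for each, and MYL6 in vesicular gland under 33, whereas those named between breeds lost their call under 3 to 10 of 10 or 11 alternatives. Causes were not tested. Counting isoforms with at least 5 full-length reads, testis minus prostate gland was 2.08 points in the share of all TPM (adjusted p = 0.0519, exact test). The mean share of gene TPM then gave 0 called pairs (testis minus epididymis, vesicular, prostate and bulbourethral gland -1.49, -1.82, -2.80 and -1.98 points), and the main transcript also 0 (-2.08, -3.44 and -2.36 points against vesicular, prostate and bulbourethral gland, and -0.187 between breeds). Without isoforms whose retained introns were all under 30 bp, testis minus prostate gland was 1.61 points of all TPM (adjusted p = 0.115, call lost) and the breed difference in main transcripts -0.0430 points. Without the 10 most abundant transcripts, testis minus vesicular gland was -0.976, testis minus prostate gland -3.18 and epididymis minus vesicular gland -0.538 points. With genes of at least 5 TPM in each gland, testis minus epididymis was -2.03 points in mean share (adjusted p = 0.0649), and for the main transcript testis minus vesicular and bulbourethral gland was -1.64 and -2.25 points (adjusted p = 0.0974 for both), so that these 3 calls were lost. With the lowest-integrity libraries left out, 7 pairs were called for the mean share and 5 for the main transcript, and DSE exceeded BMI by 0.533 and 0.831 points.

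With the replicate number as a block, 0 pairs were called for each of the 3 measures, but sign flips over 6 pairs cannot give p below 0.03125, so that few adjusted values could pass. Differences were the same by construction: 5.26, 2.45, 5.75, -2.81 and -4.14 points of all TPM, -2.58, -2.64, -3.60 and -2.90 in mean share, and -2.54, -3.92 and -3.09 for the main transcript. Under the block breed calls on log2 values were 3 in testis (0.0562%, all transcripts 0.162%) and 0 in vesicular, prostate and bulbourethral gland (all 0%). Breed calls in usage were 0 in these 4 glands, against 0.00429% of all transcripts in vesicular gland and 0% of all in the other 3. The block moved no other count of calls by more than 1.5 times.

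With a pseudocount of 0.1, isoforms called higher numbered 1460 in epididymis, 354 in vesicular, 584 in prostate and 1195 in bulbourethral gland, and with size factors 443 in epididymis, 459 in vesicular and 442 in bulbourethral gland. In vesicular gland 121 of 5313 tested were called higher in usage with genes of at least 5 TPM, against 182 of 8012 without that limit. The share of all transcripts under this setting is not given, so this count is not read as a trait of coding NIC isoforms. Breed calls on log2 values without a filter were 10, 3, 3 and 0 of 15,729 in testis, epididymis, vesicular and bulbourethral gland (all transcripts 0.0927%, 0.0105%, 0.0142% and 0.0217%). In one fit of 30 libraries they were 252, 54, 23, 41 and 32 (testis, epididymis, vesicular, prostate, bulbourethral gland). With a pseudocount of 0.1 they were 12, 24, 36 and 20 in all but testis (0.203%, 0.559%, 0.7% and 0.359%, all 0.32%, 0.645%, 0.987% and 0.603%). With size factors 11 were called in vesicular gland (0.256%, all 0.394%). Over log2 values and usage, 38 alternative breed fits called at least 1 coding NIC isoform, and the share called exceeded that of all transcripts in 4 of them, as it did in 5 of 33 such fits without 1 library. Breed calls in usage were 2, 1 and 3 of 5313 in testis, vesicular and prostate gland with genes of at least 5 TPM (all transcripts 0.0732%, 0.0244% and 0.0872%). Without a filter on the share they were 1, 2 and 2 of 13,705 in epididymis, vesicular and prostate gland (all 0.0115%, 0.0276% and 0.0276%). After an arcsine square root they were 7, 2, 12, 14 and 5 of 8012 by gland (all 0.195%, 0.045%, 0.208%, 0.244% and 0.154%). In one fit they were 88, 11, 20, 12 and 8 of 8012 (all 1.66%, 0.187%, 0.315%, 0.197% and 0.159%). With at least 5 full-length reads, intron retention was 57.0%, splice site combinations 21.8%, junction combinations 21.1%, identical coding sequences 20.8%, the same start and stop 25.9%, coding retained introns 18.5% and isoforms with all retained introns under 30 bp 11.8%. With at least 10 reads of the gene, 60.1%, 61.9%, 62.6%, 63.0% and 62.1% were also main by TPM.

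Leaving out 1 library, the breed difference ranged from -0.160 to 0.218 points in mean share and from -0.187 to 0.353 for the main transcript. Called pairs ranged from 3 to 7 for the mean share (7 without BMI prostate gland 3) and from 0 to 4 for the main transcript, being 1 without each of BMI vesicular gland 1 to 3 and DSE vesicular gland 2 and 3. Testis minus epididymis ranged from -3.07 to -2.37 points in mean share, and for the main transcript testis minus bulbourethral, prostate and vesicular gland from -3.70 to -2.82, -4.42 to -3.65 and -3.04 to -2.27. Usage calls ranged from 116 (without BMI prostate gland 1) to 207 higher in prostate gland and from 76 (without BMI epididymis 3, 88 without DSE epididymis 1) to 156 lower in epididymis. The share of all transcripts called in these fits is not given, so these ranges are not read as a trait of coding NIC isoforms. Breed calls on log2 values ranged from 0 (without any BMI testis library) to 22 in testis, 0 to 1 in vesicular gland, 0 (without any DSE prostate gland library) to 71 (without BMI 2) in prostate gland and 0 to 0 in bulbourethral gland. Breed calls in usage ranged from 1 (without DSE testis 3) to 9 (without DSE testis 1), from 0 to 2 in epididymis (without BMI 3 or DSE 1), from 1 (without DSE 3) to 12 (without DSE 1) in vesicular gland, from 4 to 27 (without BMI 2) in prostate gland, and from 0 (without BMI 3) to 7 (without DSE 2) in bulbourethral gland.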
